A study of Mus musculus with 2 samples.

Results

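The genes of cholesterol and fatty acid synthesis were examined in CD34-positive epithelial cells sorted from skin tumours of a K14CreER:Rosa-VEGF-164 mouse and of a wild-type mouse, with 1 Affymetrix Mouse Genome 430 2.0 array for each. The group comprised 30 named genes, chosen with earlier results of these data known. Each was read through the probe sets that the platform annotation assigns to that gene alone. Such probe sets were found for 29 of the 30, out of 18194 genes with a probe set of their own. Acat2, which encodes the cytosolic thiolase that joins the first acetyl units of the pathway, was not analysed here. The K14CreER:Rosa-VEGF-164 mouse carries a VEGF-164 transgene at the Rosa locus and an inducible Cre recombinase under the keratin 14 promoter, which is active in basal epidermal cells. Both mice received the carcinogen DMBA on postnatal days 23, 25 and 27, repeated applications of the tumour promoter TPA, and DMBA again at 7 weeks of age. How many tumours each sample held was not stated, and both genotypes rest on a single array, so the values below have no replicate error and no test between genotypes.

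Animal cells build cholesterol from acetyl units through mevalonate, isoprenoid diphosphates and squalene, which is closed into a ring and trimmed to cholesterol. Fatty acids are built from the same units by acetyl-CoA carboxylase and fatty acid synthase, then lengthened by elongases and given double bonds by desaturases. Most of these enzymes are under the SREBP transcription factors, which the escort protein SCAP carries out of the endoplasmic reticulum when sterols are low and which INSIG proteins hold back when sterols are high. In skin, both pathways supply the lipids of the permeability barrier, and sebaceous gland cells use them for sebum.

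Markers of basal keratinocytes were bright on both arrays, and so were some of keratinocyte differentiation. Of 7 tumour keratinocyte markers, all above background on both arrays, 3 had a ratio above 0 and 4 below (5 above 0 after quantile or loess normalization, or when an offset of 50 was added to signals scaled to 1 median). Their summed signal was 24107 on the VEGF-labelled array and 26884 on the wild-type array. Krt5 had a signal of 7875 on the VEGF-labelled array and 8352 on the wild-type array, Epcam 1905 (VEGF-labelled) and 1597 (wild type), and Cd34 751 (VEGF-labelled) and 430 (wild type); the other Epcam probe set gave a log2 ratio of -1.16. Trp63, which encodes the basal-cell factor p63, had 1587 on the VEGF-labelled array and 2706 on the wild-type array (1.71-fold lower), and the integrin gene Itga6 had 2421 (VEGF-labelled) and 3952 (wild type), 1.63-fold lower. The differentiation marker Krtdap had 6754 on the VEGF-labelled array and 7354 on the wild-type array, and Krt10 2736 (VEGF-labelled) and 2525 (wild type). Vegfa, the gained gene, had a signal of 397 on the VEGF-labelled array and 804 on the wild-type array. It is not known here whether its probe sets read the transgene, so genotype directions follow the label. The arrays were scaled to the same trimmed mean of 100.04, while the background level was 11.3 on the VEGF-labelled array and 19.9 on the wild-type array. Background is the 90th percentile of 80 probe sets of odorant and pheromone receptor genes, and signals were floored at it. The ratio of the 3′ to the 5′ control probe set was 0.912 on the VEGF-labelled array and 1.15 on the wild-type array for Gapdh, and 1.45 (VEGF-labelled) and 2.01 (wild type) for β-actin. The part of RNA integrity in the ratios below was not tested.

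Across the group, lipid synthesis transcripts were present on both arrays and mostly similar between them. All 29 measured genes lay above background on both arrays, so no member depended on the floor. On the VEGF-labelled array, 2 of the 29 were at least 2-fold higher (Fads2 and Mvk), which is 6.9%, against 3.87% of the 12195 genes with a fold or a bound. Scd1 alone was at least 2-fold lower, which is 3.45% of the members, against 8.54% of all genes. At 1.5-fold, 5 members were higher (17.2%, against 11.6% of all genes) and 2 were lower (6.9%, against 20.0%). A log2 ratio above 0 was found for 17 of the 29 (58.6%), against 47.1% of all genes. The all-gene shares include many genes of low signal. Among the 7401 genes above background on both arrays and within the members' range of mean signal, 3.77% were at least 2-fold higher, 3.58% at least 2-fold lower and 55.2% above 0. At 1.5-fold the shares of those genes were 12.8% higher and 9.92% lower. The median log2 ratio of the members was 0.16, against -0.04 over all genes and 0.06 over those 7401.

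**Figure D1:**
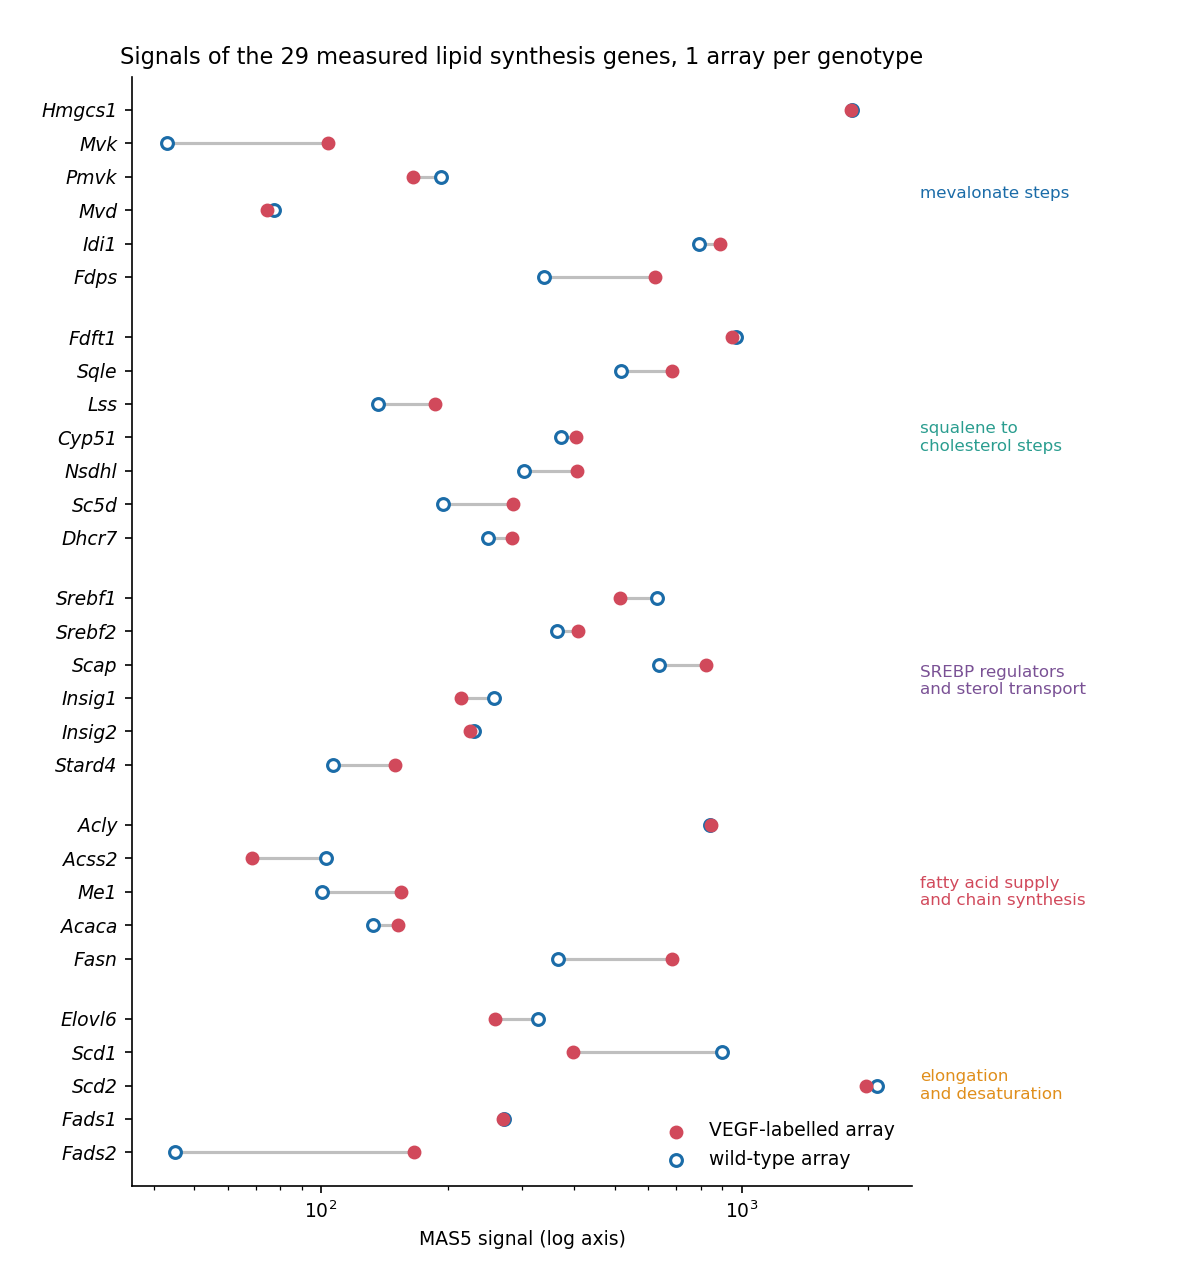
Signal of each of the 29 measured genes (log axis, brightest probe set of the gene) on the VEGF-labelled array (filled) and the wild-type array (open), grouped by role; there is 1 array per genotype and no error bar. The longest connecting lines are those of Fads2 (167 on the VEGF-labelled array against 45.0 on the wild-type array), Mvk (104 VEGF-labelled against 43.2 wild type) and Scd1 (398 VEGF-labelled against 898 wild type).

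With 1 array per genotype, error could be judged only from how far different probe sets of 1 gene differed. This was done over 4887 genes that had more than 1 probe set above both background levels. The SD of 1 probe set's log2 ratio was 0.50 in the lowest tertile of signal (a mean signal below 86.9), 0.42 in the middle tertile and 0.32 in the highest (above 213). It leaves out the spread between animals, tumours, sorts and labelling reactions. Against it, 15 of the 29 members had a ratio of less than 1 SD. A ratio of more than 2 SD was found for 5. These were Fads2, Mvk, Fasn and Fdps, which were higher on the VEGF-labelled array, and Scd1, which was lower. The same shares over all genes were not counted, so these counts do not set the members apart from other genes.

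**Figure D2:**
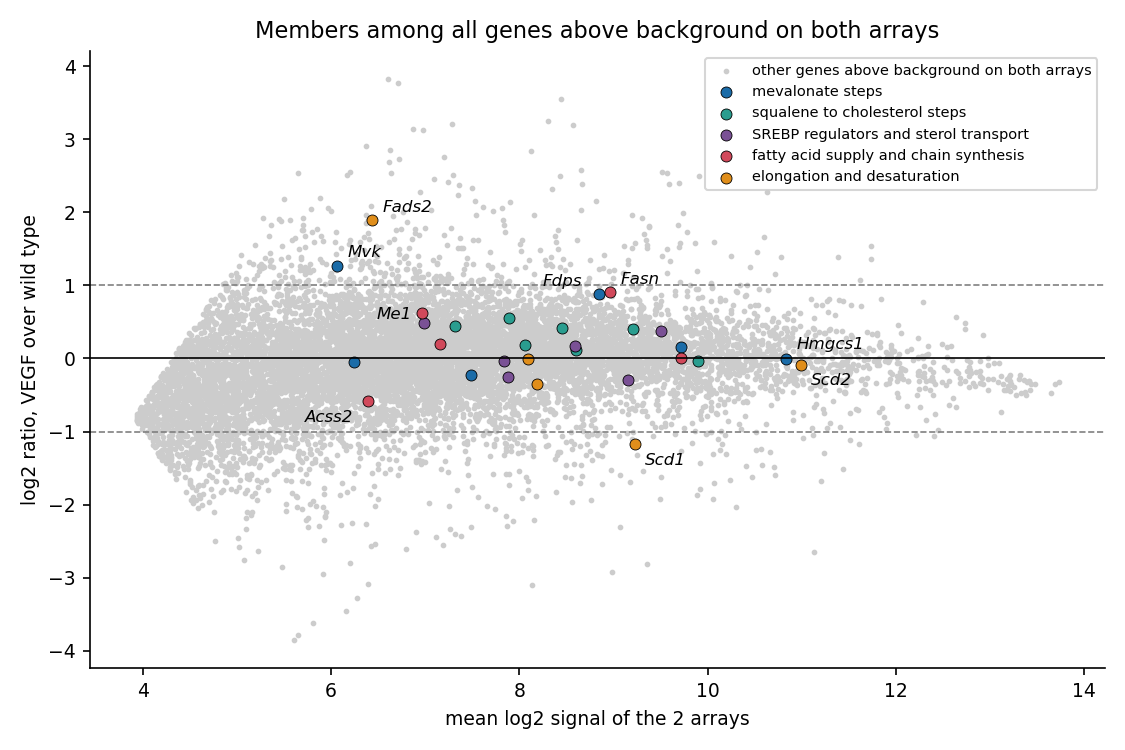
Log2 ratio of the VEGF-labelled array over the wild-type array against the mean log2 signal, for the members (coloured by role) and the other genes above background on both arrays (grey). Dashed lines mark a 2-fold difference; Fads2 and Mvk lie above the upper line, Scd1 below the lower, and Fasn and Fdps just under the upper.

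In the mevalonate steps, which turn acetyl units into isoprenoid diphosphates, 1 of 6 measured genes reached 2-fold in the higher direction and 0 in the lower. Mvk, which encodes mevalonate kinase, had a signal of 104 on the VEGF-labelled array and 43.2 on the wild-type array, a 2.41-fold higher value (log2 ratio 1.27, probe set SD 0.50). Its second probe set was higher by less than 2-fold, with 61.0 on the VEGF-labelled array and 33.4 on the wild-type array (log2 ratio 0.87). Fdps, which encodes the synthase of farnesyl diphosphate, had 622 on the VEGF-labelled array and 339 on the wild-type array, 1.83-fold higher (log2 ratio 0.88, SD 0.32); its other probe set was at or below background on both arrays. Both genes were thus higher on the VEGF-labelled array by more than 2 probe set SDs. No other gene of this segment reached 1.5-fold by its brightest probe set. Idi1, the isopentenyl diphosphate isomerase gene, had 888 on the VEGF-labelled array and 794 on the wild-type array, and its other probe set went the opposite way (log2 ratio -0.31). Pmvk and Mvd, which encode the enzymes after mevalonate kinase, had log2 ratios of -0.22 and -0.05. Hmgcs1, which encodes the cytosolic HMG-CoA synthase, had 1817 on the VEGF-labelled array and 1829 on the wild-type array, a log2 ratio of -0.01. Of its 4 other probe sets, 3 lay between -0.26 and 0.11, while the dimmest gave 63.1 on the VEGF-labelled array and 253 on the wild-type array (log2 ratio -2.00).

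Promoter sequence is shown for Mvk and Fads2, the members at least 2-fold higher on the VEGF-labelled array, and for Hmgcs1, the member whose window held the full sterol regulatory element searched for and whose signal hardly differed. They are RefSeq sequences of build GRCm38.p6, 5′ to 3′ on the gene's strand, ending before the annotated gene. The Mvk stretch is chr5:114444019-114444263 (plus strand), the Fads2 stretch chr19:10101504-10101753 (minus strand) and the Hmgcs1 stretch chr13:119690101-119690350 (plus strand). Capitals mark CCAAT, the core bound by the factor NF-Y, on either strand (ATTGG when on the opposite one), and the sterol element TCACNCCAC or its shorter core TCACNCC, which lies inside it.
Mvk: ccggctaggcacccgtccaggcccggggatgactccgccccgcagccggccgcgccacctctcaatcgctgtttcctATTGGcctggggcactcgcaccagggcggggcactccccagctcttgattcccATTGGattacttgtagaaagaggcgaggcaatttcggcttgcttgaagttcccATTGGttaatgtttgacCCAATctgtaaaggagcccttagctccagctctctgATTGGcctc
Fads2: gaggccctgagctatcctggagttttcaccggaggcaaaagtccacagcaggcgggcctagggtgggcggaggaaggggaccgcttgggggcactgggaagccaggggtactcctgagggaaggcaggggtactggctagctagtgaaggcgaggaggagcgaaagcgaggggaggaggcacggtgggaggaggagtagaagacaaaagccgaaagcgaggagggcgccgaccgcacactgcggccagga
Hmgcs1: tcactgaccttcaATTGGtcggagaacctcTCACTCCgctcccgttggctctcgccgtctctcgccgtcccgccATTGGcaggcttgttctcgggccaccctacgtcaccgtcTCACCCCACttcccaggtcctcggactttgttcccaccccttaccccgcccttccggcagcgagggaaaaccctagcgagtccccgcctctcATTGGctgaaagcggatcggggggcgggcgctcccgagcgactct
The Mvk stretch held CCAAT 5 times and no sterol core, and the Fads2 stretch held neither. The Hmgcs1 stretch held CCAAT 3 times and the sterol core at 220 and 137 bases before the start, and the one nearer the start extended to the full element. Windows of 250 bases before to 50 after a start were found for 23 of the 30 members. A gene counted as holding a motif when any of its windows did, on either strand. CCAAT was in 18 of the 23 (78.3%), against 41.1% of 27025 genes with a window, and GGGCGG, a core of Sp1 sites, was in 19 (82.6%), against 38.2%. TCACNCC was in 4 (17.4%), against 17.6%, and TCACNCCAC in Hmgcs1 alone (4.35%), against 1.44%. These are matches of letters and do not show that a factor binds.

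From squalene to cholesterol, the 7 genes differed little by their brightest probe sets, and none was 1.5-fold apart by these. The median log2 ratio was 0.40, with 6 of 7 above 0, and it was 0.18 with 4 of 7 above 0 when all probe sets of a gene were used. Sqle, the squalene epoxidase gene and a rate-limiting step after squalene, had 682 on the VEGF-labelled array and 516 on the wild-type array (log2 ratio 0.40, SD 0.32). Nsdhl, a sterol dehydrogenase gene of the demethylation steps, had 405 on the VEGF-labelled array and 305 on the wild-type array (0.41). Lss, which encodes lanosterol synthase, had 186 (VEGF-labelled) and 137 (wild type), a log2 ratio of 0.44. Its other probe set above background on both arrays gave only 0.13. Sc5d, which encodes a late sterol desaturase, had 287 on the VEGF-labelled array and 195 on the wild-type array (0.55), but its other probe sets gave -0.15 and -0.81. The same disagreement was seen for Cyp51, the lanosterol demethylase gene, at 0.12 by its brightest probe set and -0.53 and -0.68 by the others. Dhcr7, the last reductase gene, gave 0.18, and Fdft1, which encodes squalene synthase, was nearly equal with 947 on the VEGF-labelled array and 968 on the wild-type array.

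By their brightest probe sets, the regulators of the pathway and the carrier gene Stard4 differed by less than 1.5-fold between the arrays. Srebf1, which encodes the SREBP that mainly drives fatty acid genes, had 515 on the VEGF-labelled array and 630 on the wild-type array (log2 ratio -0.29, SD 0.32). Srebf2, which encodes the SREBP that mainly drives cholesterol genes, had 408 on the VEGF-labelled array and 364 on the wild-type array (0.17), with 0.65 by its dimmer probe set. Scap, the escort gene, had 824 on the VEGF-labelled array and 637 on the wild-type array (0.37). Insig1, itself a sterol-responsive target of SREBP, had 215 on the VEGF-labelled array and 258 on the wild-type array (-0.26). Insig2 had 226 (VEGF-labelled) and 231 (wild type), a log2 ratio of -0.03, but its other probe sets gave -0.41 and -0.32. Stard4, which encodes a cytosolic carrier of sterols, had 150 on the VEGF-labelled array and 107 on the wild-type array, with log2 ratios between 0.21 and 0.93 over its 3 probe sets. No regulator exceeded 1 probe set SD by much on its brightest probe set, Stard4 and Scap being the farthest at 1.17 and 1.15 SD.

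**Figure D3:**
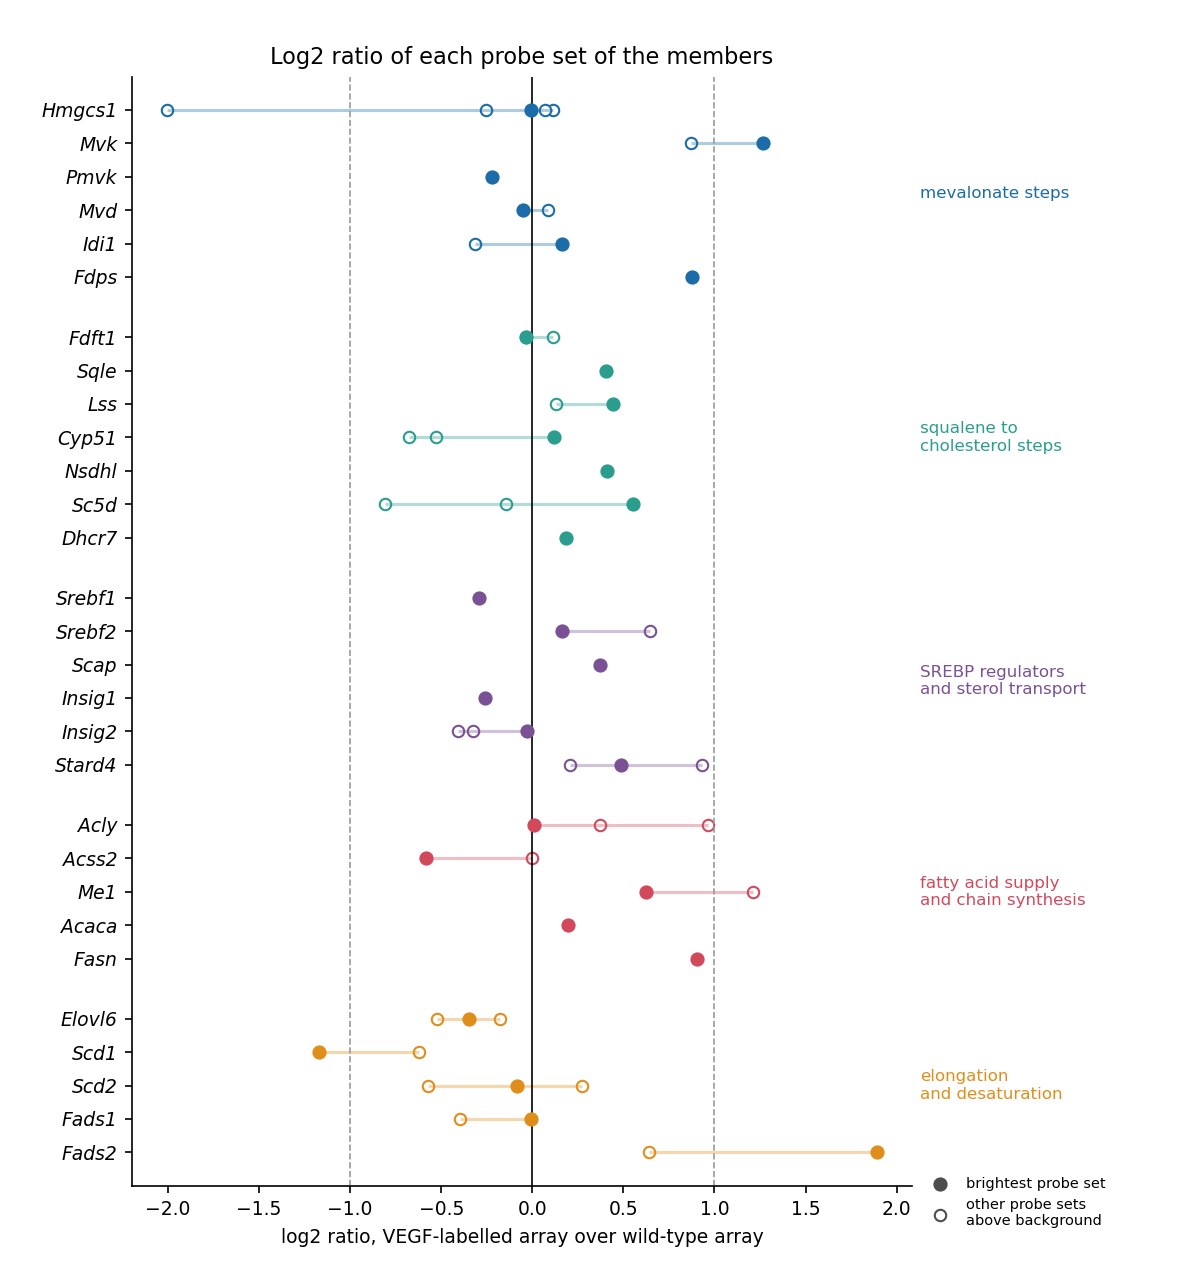
Log2 ratio of the VEGF-labelled array over the wild-type array for every member probe set above background on both arrays; filled points are the brightest probe set of a gene, open points its others, and dashed lines mark 2-fold. Mvk, Fads2, Me1 and Stard4 lie above 0 and Scd1 and Elovl6 below 0 by all their probe sets, while those of Cyp51 and Sc5d lie on both sides.

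Of the 69 probe sets of the members, 59 were above background on both arrays, 5 only on the VEGF-labelled array, and 5 on neither. Several probe sets above background on both arrays were available for 19 genes. In 12 of these all further probe sets had the sign of the brightest, and in 7 at least 1 did not.

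Among the genes that supply and build the fatty acid chain, Fasn and Me1 were higher on the VEGF-labelled array and Acss2 lower, each by less than 2-fold on the brightest probe set. Fasn, which encodes fatty acid synthase, had 684 on the VEGF-labelled array and 365 on the wild-type array, 1.87-fold higher (log2 ratio 0.90, SD 0.32, 1 probe set). Me1, the cytosolic malic enzyme gene that yields NADPH for synthesis, had 155 on the VEGF-labelled array and 101 on the wild-type array (1.54-fold), and 162 (VEGF-labelled) and 70.0 (wild type) by its other probe set (2.31-fold). Both Me1 probe sets and the single Fasn probe set were thus higher on the VEGF-labelled array. Acaca, which encodes acetyl-CoA carboxylase, had 152 on the VEGF-labelled array and 133 on the wild-type array (log2 ratio 0.19). Acly, the ATP citrate lyase gene that releases acetyl-CoA in the cytosol, had 844 (VEGF-labelled) and 840 (wild type) by an x-type probe set, which may cross-hybridise with related transcripts, and log2 ratios of 0.37 and 0.97 by 2 dimmer ones. Acss2, which encodes the enzyme that activates acetate, had 68.5 on the VEGF-labelled array and 103 on the wild-type array (a log2 ratio of -0.59), while its other probe set was equal, at 70.6 (VEGF-labelled) and 70.7 (wild type).

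Desaturase genes held both the highest and the lowest ratio of the members. Fads2, which encodes the delta-6 desaturase of polyunsaturated fatty acid synthesis, had 167 on the VEGF-labelled array and 45.0 on the wild-type array, 3.71-fold higher (log2 ratio 1.89, SD 0.50). Its second probe set had 82.3 on the VEGF-labelled array and 52.8 on the wild-type array (log2 ratio 0.64), and the third, at 34.4 on the VEGF-labelled array, was at or below background on the wild-type array, at least 1.73-fold higher. All 3 were higher on the VEGF-labelled array, by sizes that differed more than 2-fold. Fads1, the delta-5 desaturase gene that lies next to Fads2 on chromosome 19, had 271 on the VEGF-labelled array and 273 on the wild-type array (log2 ratio -0.01). Scd1, a stearoyl-CoA desaturase gene that makes monounsaturated fatty acids, had 398 on the VEGF-labelled array and 898 on the wild-type array, 2.25-fold lower (log2 ratio -1.17, SD 0.32). Its other probe set was lower too, with 137 on the VEGF-labelled array and 211 on the wild-type array (-0.62). Scd2, the paralogue from the same cluster on chromosome 19, was nearly equal by its brightest probe set (1976 on the VEGF-labelled array, 2093 on the wild-type array), with -0.57 and 0.27 by the others. Scd genes are similar in sequence, so probe sets may read more than 1 of them. Elovl6, the elongase gene that acts on the product of fatty acid synthase, had 259 on the VEGF-labelled array and 329 on the wild-type array (log2 ratio -0.35), and its other probe sets gave -0.18 and -0.53.

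Markers of sebaceous gland cells, which express Scd1 strongly, were lower on the same array as Scd1. Of 10 such markers 8 had a probe set, 6 were above background on the VEGF-labelled array and 7 on the wild-type array. Their summed signal was 851 on the VEGF-labelled array and 1650 on the wild-type array. Plin2, the brightest of them, differed little, with 619 on the VEGF-labelled array and 725 on the wild-type array (log2 ratio -0.23). All 7 with a value had a ratio below 0 and 5 were at least 2-fold lower. With an offset of 50 after matching the medians, 7 of 8 were below 0 and 1 at least 2-fold lower. Most were dim: when only mean signals from 4 times background upwards were kept, 2 were left. Both of these were below 0 and 1 was at least 2-fold lower. Krt79, a keratin gene of sebaceous ducts and the upper follicle, had 133 on the VEGF-labelled array and 611 on the wild-type array (4.61-fold lower), and Pparg, a transcription factor gene of lipid-storing cells, had 26.6 (VEGF-labelled) and 84.9 (wild type), 3.19-fold lower. Scd3, a sebocyte desaturase gene, had 17.9 on the VEGF-labelled array and 26.4 on the wild-type array, near background on both. Mc5r, a melanocortin receptor gene of sebocytes, was at or below background on both arrays. Among the adipocyte markers, Adipoq, Lep and Cidec were at or below background on both arrays, while Fabp4, which macrophages and other cells also express, had 1649 on the VEGF-labelled array and 4689 on the wild-type array. Most of the fibroblast list went the other way, with a summed signal of 2642 on the VEGF-labelled array and 1119 on the wild-type array. Of its 6 genes, 5 had a ratio above 0. Col1a2 and Col3a1, which gave most of the sum, were the 2 at least 2-fold higher. Dcn was lower, with 72.3 on the VEGF-labelled array and 91.3 on the wild-type array (log2 ratio -0.34). Pdgfra was at or below background on the wild-type array, so its ratio is a bound. Of 6 markers of differentiated keratinocytes, 5 had a value, 3 of them with a ratio above 0, and Flg was at or below background on both arrays. Their summed signal was 10895 on the VEGF-labelled array and 10436 on the wild-type array, most of it from Krtdap and Krt10. Krt1, a suprabasal keratin gene, had 1124 on the VEGF-labelled array and 382 on the wild-type array (2.94-fold higher). Lor, which encodes the cornified envelope protein loricrin, had 157 on the VEGF-labelled array and 43.7 on the wild-type array (3.60-fold higher, with a log2 ratio of 2.53 by its other probe set). Krt1 and Lor were thus higher on the same array as Fads2 and the elongase gene Elovl4. The rest of that list with a value differed little, with log2 ratios of 0.12 for Krt10, -0.12 for Krtdap and -0.18 for Ivl. The part of all these cells in the Scd1, Fads2 and Elovl4 values was not tested, and in bulk samples fewer cells of a type and less RNA per cell cannot be told apart.

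The rest of cholesterol synthesis lay close to the members. Of 6 further enzyme genes with a value, 0 were 1.5-fold apart by the brightest probe set. A ratio above 0 was found for 5 (4 of 6 with the median over probe sets), and the median log2 ratio was 0.29. Hsd17b7, a sterol ketoreductase gene, had 274 on the VEGF-labelled array and 200 on the wild-type array (0.46) by an x-type probe set. Its other probe sets above background gave 0.32 and 0.90. Tm7sf2, a sterol reductase gene, had 65.8 (VEGF-labelled) and 50.7 (wild type), a log2 ratio of 0.38. Lbr, the brightest, which encodes a nuclear envelope protein with sterol reductase activity, had 1078 on the VEGF-labelled array and 884 on the wild-type array (0.29). Ggps1, whose product diverts farnesyl diphosphate to protein prenylation, had 77.3 on the VEGF-labelled array and 113 on the wild-type array (-0.54). By their brightest probe sets, none of the 5 genes for proteins that process SREBP or degrade its partners reached 1.5-fold. All 5 ratios were above 0 (4 of 5 when each gene's median over its probe sets was used or after quantile or loess normalization). Vcp, an extraction ATPase gene, had the largest at 0.41, while its other probe set was at or below background on the VEGF-labelled array and had 65.9 on the wild-type array, a log2 bound of -2.54. It was followed by the ubiquitin ligase gene Rnf139 at 0.28 and the protease gene Mbtps2 at 0.18.

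Genes of sterol uptake, efflux and storage were lower on the VEGF-labelled array. All 7 with a value had a ratio below 0, with a median log2 ratio of -0.48, and 3 were lower by at least 1.5-fold, 1 of them by over 2-fold. With the offset, or without x- and s-type probe sets, 6 of the 7 were below 0, and with the offset the median was -0.07. Abca1, which encodes the transporter that exports cholesterol to lipid-poor apolipoprotein, had 221 on the VEGF-labelled array and 724 on the wild-type array, 3.27-fold lower, and its other probe set gave a log2 ratio of -0.89. Abcg1, a second sterol exporter gene, had 24.2 on the VEGF-labelled array and 46.8 on the wild-type array (-0.95) at low signal. Vldlr, a lipoprotein receptor gene, had 426 on the VEGF-labelled array and 699 on the wild-type array (-0.71, with others between -1.53 and -0.25). Npc2, a lysosomal sterol carrier gene and the brightest of the list, had 2398 on the VEGF-labelled array and 3290 on the wild-type array (-0.46). Whether these genes differ from the members as a list was not tested.

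Further fatty acid synthesis genes went both ways. Of 17 with a value, 10 had a ratio above 0, 2 exceeded 2-fold upwards and 1 downwards, and the median log2 ratio was 0.37. Elovl4, the elongase gene of very long barrier lipids, had 211 on the VEGF-labelled array and 100 on the wild-type array (2.11-fold higher, with a log2 ratio of 1.42 by its other probe set). Elovl7, another elongase gene, had 338 on the VEGF-labelled array and 164 on the wild-type array (2.06-fold higher, and just under 2-fold after quantile or loess normalization, at log2 ratios of 0.99 and 0.97), though its other probe sets ranged from -0.52 to 1.05 on the log2 scale. Elovl3, an elongase gene of sebaceous glands that is also on the sebocyte list, had 13.8 on the VEGF-labelled array and 75.7 on the wild-type array. It was 5.50-fold lower, or a log2 bound of -1.93 with the higher background level as floor on both arrays. Hsd17b12, the brightest of the list and part of the elongation complex, had 1411 on the VEGF-labelled array and 1089 on the wild-type array (log2 ratio 0.37).

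**Figure D4:**
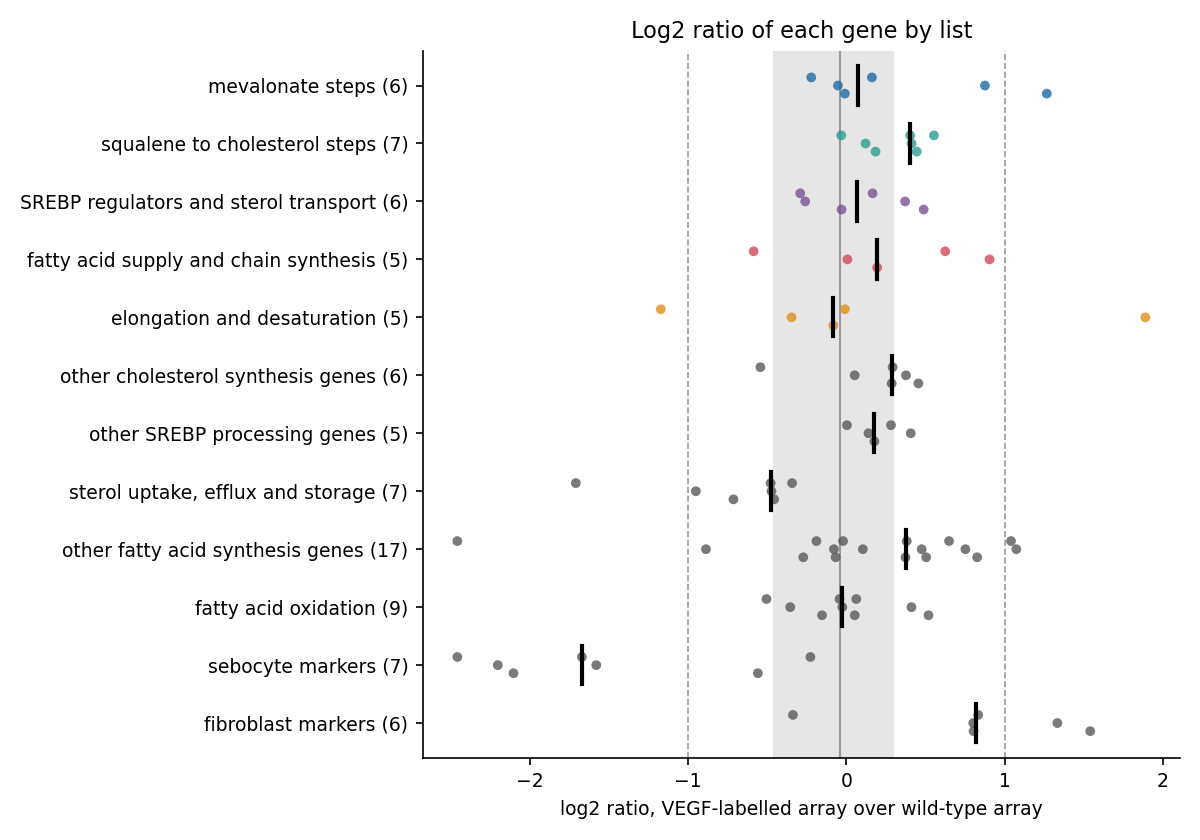
Log2 ratio of the VEGF-labelled array over the wild-type array for each gene with a value, by list (number of genes in brackets); black bars are list medians, and the grey band and line are the quartiles and median (-0.04) of all genes. The member lists have medians between -0.08 and 0.40, the sterol uptake, efflux and storage list -0.48 and the sebocyte markers -1.67.

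Fads2, Mvk, Fasn, Fdps, Me1 and Scd1 kept their side of 0 in all settings tried, some of which could not change the members' values. So did Sqle, Lss, Nsdhl, Dhcr7, Srebf2, Scap, Stard4, Acaca and Acss2. Which members were 2-fold apart differed between the settings. Fads2 was at least 2-fold higher in all of them (log2 ratio between 1.27 and 2.01). Mvk lay between 0.95 and 1.41, under 2-fold only with the offset of 50, where Fasn (1.18) and Fdps (1.14) were instead over 2-fold. Scd1 lay between -1.24 and -0.72, and was under 2-fold with the offset and with the median over its probe sets (-0.90).

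**Figure D5:**
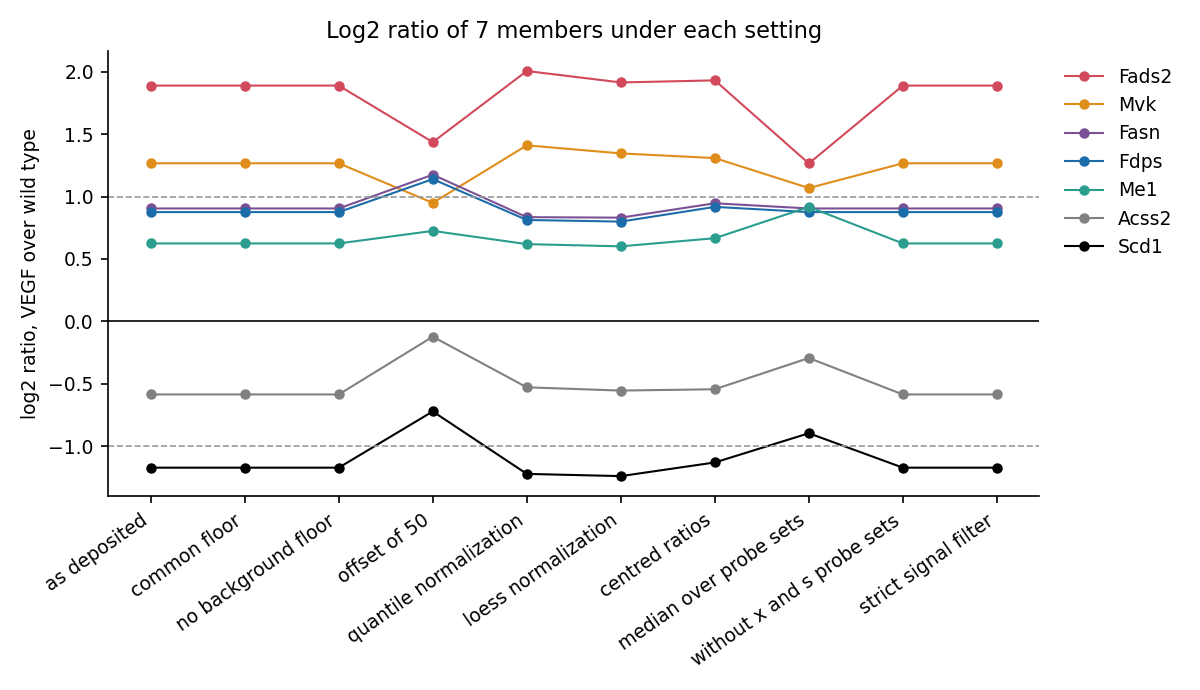
Log2 ratio of the VEGF-labelled array over the wild-type array for 7 members as deposited and under the other 9 settings; dashed lines mark 2-fold. Fads2 is the highest and Scd1 the lowest of the 7 in all settings, and Mvk lies below Fasn and Fdps only with the offset of 50.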

How the data were processed

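RNA from sorted tumour cells of 1 mouse per genotype was labelled from 100 ng of total RNA and hybridised to Affymetrix 430 2.0 arrays, per the labels' protocols. The authors deposited log2 signals, and MAS5, which summarises each array separately, is named per the submitters' processing notes, with no version or detection calls given in the sources used here. The values were anti-logged for signals. Probe sets annotated to exactly 1 gene were kept (34958 of 45101, with 932 annotated to several genes). Signals were floored at each array's background, and a gene was read by its brightest probe set (mean log2 signal of both arrays). A bound was given where 1 array alone was above background. Ratios are VEGF-labelled over wild type. With 1 array per genotype no test was made and a rule of 2-fold was used; the number of arrays limits the precision. All 30 members were named. From each further list of pathway genes the brightest gene and the 3 largest ratios in size were named, and other genes where a result turned on them. Of the cell type marker lists only some genes were named. Immune cell and endothelial cell markers were measured too but are not described here. The members and lists were chosen with earlier results of these data known. The steps were tested on simulated data. Other settings were a common floor, no floor (signals below 1 raised to 1), an offset of 50 after matching medians, quantile and loess (span 0.4) normalization, centred ratios, the median over probe sets, no _x_at or _s_at probe sets, and a filter keeping mean signals from 4 times background upwards. Python 3.11.15, pandas 2.3.3, numpy 2.4.6 and statsmodels 0.14.6 were used.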

Additional observations from a re-analysis of the deposited data

How the results depend on the processing

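Under 7 of the 9 other settings the counts over the members stayed within 1.5 times, and the medians within the smallest probe set SD of 0.32, of their values as deposited. With the offset, 0 members were at least 2-fold lower (as deposited 1), 27 had a ratio above 0 (as deposited 17), and the median log2 ratio was 0.52 for the cholesterol members (0.18) and 0.35 for the fatty acid members (0.00). Matching the medians before the offset raises every log2 ratio by 0.39 before the offset is added. The median of all genes was 0.10 under this setting, which gives a value to 18194 genes, and -0.04 over 12195 genes as deposited, a move of 0.14 for the whole setting. Taking each gene's median ratio over its probe sets, 0 members were at least 2-fold lower, since the dimmer Scd1 probe set gave -0.62. The median over all members ranged from 0.02 with the median over probe sets to 0.45 with the offset. Single members moved by more than the probe set SD in 15 cases with the offset, 4 with the median over probe sets (Cyp51, Sc5d, Acly and Fads2) and 1 (Acly) without x- and s-type probe sets. The other 6 settings moved none of the 29 by that much, but not all of them could. The members lay above both background levels, so neither the common floor nor the absence of a floor could change their values. The filter, which all 29 passed, could not either. Centring moved every ratio by the same small amount. The unchanged counts and medians under these settings are therefore no sign of stability. No paired analysis was possible because each genotype had 1 array. Outside the members, the further fatty acid synthesis genes at least 2-fold higher numbered 2 as deposited, 1 after quantile or loess normalization, where Elovl7 fell short, and 3 with the offset. Low signals, such as 43.2 for Mvk and 45.0 for Fads2 on the wild-type array with a background of 19.9, limit the precision of their ratios.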

Other observations

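Fatty acid oxidation genes, which break down what the synthesis genes build, were within 1.5-fold on the arrays by their brightest probe sets. The dimmest probe set of Cpt1a went beyond this, at a log2 ratio of -0.71 against 0.05 by the brightest. Of 9 with a value, 4 had a ratio above 0 (2 after quantile or loess normalization and 8 with the offset of 50) and the median log2 ratio was -0.03. Cpt2, a mitochondrial carnitine palmitoyltransferase gene, had a signal of 157 on the VEGF-labelled array and 109 on the wild-type array (log2 ratio 0.52), but -0.56 by its other probe set. Acadl and Acadvl, acyl-CoA dehydrogenase genes, went opposite ways (0.41 and -0.50). Hadhb, the brightest of the list and a subunit gene of the mitochondrial trifunctional protein, had 802 on the VEGF-labelled array and 1026 on the wild-type array, but a log2 ratio of 0.47 by its next brightest probe set.

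Msmo1, the sterol methyl oxidase gene, was chosen after its values were seen. Its brightest probe set was nearly equal (869 on the VEGF-labelled array, 838 on the wild-type array), while its other gave a log2 ratio of -1.64. A dim probe set of Hmgcs1 behaved alike, at -2.00 against -0.01 for the brightest. Which part of these transcripts each probe set reads was not examined.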
